A study of Arabidopsis thaliana with 8 samples.

Results

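The 46 loci described here encode WRKY transcription factors of Arabidopsis thaliana. They were chosen by locus identifier, with earlier results of these data known. Of the 46, 45 were among the 22546 loci listed in at least 1 of 8 leaf messenger RNA libraries. The annotation holds 26 other WRKY loci, which serve only as a comparison. The libraries came from leaves of wild type (wt) and of the mutant dcl1, which is impaired in DICER-LIKE 1, the nuclease that excises microRNAs from precursor transcripts. The plants grew in chambers under a light and dark cycle and received no specific treatment, per the labels. For the dcl1 allele, the ecotype and the plants' age, the sources used here give no entry. Each genotype was represented by 2 RNA samples. Every RNA sample was made into a library with high definition (HD) adapters, which carry random bases at the ligated end, and into a library with standard Illumina adapters. Genotype and adapter thus gave 4 groups of 2 libraries each. Nothing in the labels says that the RNA samples of a genotype were separate plants, so p-values measure only how far these samples scatter, and that scatter may be technical.

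WRKY proteins are plant transcription factors named after a conserved run of residues in their DNA-binding domain, which folds around a zinc ion. Most bind the W box, a short DNA element with the core TGAC, and many WRKY genes carry W boxes in their own promoters, so that members regulate each other. The family is divided into group I, with a pair of WRKY domains, group II with subgroups IIa to IIe, and group III, whose zinc finger ends in a different pair of ligands. In leaves the family is best known for defence signalled by salicylate and jasmonate, for responses to microbial molecules through MAP kinase cascades, and for the timing of senescence.

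The sequences bear on both features. The coding bases of the conserved heptad were read from the RefSeq TAIR10.1 genome, and the sixth codon is in capitals because it is where the listed proteins differ from the canonical heptad. WRKY11 and WRKY17 (group IId) and WRKY54 and WRKY70 (group III) are shown because the expression results turn on them, and WRKY50 and WRKY51 because they carry a lysine codon in place of glutamine.
WRKY11 heptad: tggaggaagtacggaCAAaaa
WRKY17 heptad: tggagaaagtatggaCAAaaa
WRKY54 heptad: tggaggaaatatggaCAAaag
WRKY70 heptad: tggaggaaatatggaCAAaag
WRKY50 heptad: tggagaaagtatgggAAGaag
WRKY51 heptad: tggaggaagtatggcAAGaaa
The WRKY54 and WRKY70 stretches are letter for letter the same, but the pair is not alone in this, since WRKY66, also of group III, has the same bases. WRKY11 and WRKY17 differ in bases that leave the residues the same. Over the whole translated protein, WRKY11 and WRKY17 were identical at 72.7% of the columns of a global alignment, gaps included. That was the highest value of any pair of members, and WRKY54 and WRKY70 were identical at 43.6%.

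The 250 bases upstream of the annotated gene start are shown for these 4 genes, the members called within at least 1 kind of adapter. All 4 genes lie on the minus strand, and the sequences read 5′ to 3′ toward the gene. The windows are chr4:15291935-15292184 for WRKY11, chr2:10439470-10439719 for WRKY17, chr2:17002529-17002778 for WRKY54 and chr3:20910624-20910873 for WRKY70, in TAIR10.1. Capitals of 6 letters mark a W box, searched as TTGACC or TTGACT on both strands. Capitals of 5 letters mark TGACG, searched on both strands, the core of the element bound by TGA factors, which partner with the salicylate receptor NPR1. The search for TGACG was added after these upstream sequences had been read.
WRKY11 upstream: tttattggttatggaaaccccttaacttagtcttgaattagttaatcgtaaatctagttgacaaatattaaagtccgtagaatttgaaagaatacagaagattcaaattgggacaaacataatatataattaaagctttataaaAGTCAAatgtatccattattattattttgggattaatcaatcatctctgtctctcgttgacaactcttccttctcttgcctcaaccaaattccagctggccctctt
WRKY17 upstream: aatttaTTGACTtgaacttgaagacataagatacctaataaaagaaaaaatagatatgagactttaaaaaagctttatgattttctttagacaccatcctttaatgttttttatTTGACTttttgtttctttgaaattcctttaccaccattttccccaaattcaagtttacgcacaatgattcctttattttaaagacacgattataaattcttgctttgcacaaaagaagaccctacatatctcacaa
WRKY54 upstream: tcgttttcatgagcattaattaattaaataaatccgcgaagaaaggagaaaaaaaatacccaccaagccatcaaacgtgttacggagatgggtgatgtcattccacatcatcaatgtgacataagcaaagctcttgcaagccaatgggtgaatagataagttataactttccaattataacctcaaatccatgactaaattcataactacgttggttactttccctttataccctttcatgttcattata
WRKY70 upstream: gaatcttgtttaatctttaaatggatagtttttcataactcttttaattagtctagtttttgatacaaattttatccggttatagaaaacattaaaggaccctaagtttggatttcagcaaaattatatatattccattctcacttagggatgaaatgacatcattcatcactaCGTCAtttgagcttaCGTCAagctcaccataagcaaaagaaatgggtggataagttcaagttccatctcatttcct
WRKY11 holds 1 W box in this window, WRKY17 holds 2, and WRKY54 and WRKY70 hold 0. Of the members called on summed counts only, all lower in dcl1, WRKY15 holds 2 W boxes and WRKY46 and WRKY69 hold 0. A link between W boxes and the direction of change was not tested. Among the 4 genes shown, WRKY70 holds 2 copies of TGACG and the other 3 hold 0. Among all 46 members, 17 (37.0%) hold at least 1 W box within 250 bases, and 28.4% of the 27443 promoters of this length in the annotation do. At least 2 W boxes are found for 9 members (19.6%) and for 6.20% of all promoters. Within 1000 bases, 40 members (87.0%) hold at least 1 W box against 67.3% of all promoters. At least 1 TGACG is found within 250 bases for 11 members (23.9%) and 18.6% of all promoters. A match describes letters in the window and is not a measured binding site.

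Library totals ran from 15772958 to 45929383 counts, and the 46 loci together took 6641 to 19494 counts of a library (0.0331% to 0.0488%). Values below are normalised read counts scaled to a common library size (CPM), and levels are compared between genes only after division by exon length, as CPM per kilobase. By the mean over 8 libraries, 13 members reached at least 10 CPM, 17 lay between 1 and 10 CPM, and 16 lay under 1 CPM. The first 6 members by CPM per kilobase held 50.7% of the summed CPM of the members in wild type and 50.7% in dcl1. A few genes thus took much of the members' reads, a share that is not divided by exon length. WRKY15, a calmodulin-binding member linked to growth and osmotic stress, had the highest level, 38.9 CPM per kilobase (27.3 to 55.5 over 8 libraries). WRKY70, a regulator of salicylate defence and senescence, followed with 23.01 (8.49 to 45.4), then WRKY18 with 19.1 (13.8 to 26.4), WRKY25 with 18.6 (11.7 to 26.8), WRKY11 with 18.6 (10.2 to 29.3) and WRKY33 with 16.1 (11.9 to 19.7). These ranges overlap between neighbours among these 6 genes, so neighbouring ranks are not separated by these libraries. The means also pool genotypes that differ: WRKY70 was at 33.1 ± 10.5 CPM per kilobase in wild type and 13.0 ± 3.81 in dcl1 (SD, n = 4 libraries each). WRKY11 was at 13.1 ± 3.61 in wild type and 24.1 ± 3.50 in dcl1. By its mean in dcl1, WRKY70 came after WRKY11, WRKY18, WRKY25 and WRKY33. It was not separated from WRKY25 (15.7 ± 5.38 in dcl1) or WRKY33 (15.6 ± 3.61), whose values overlap with its own.

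Other group I genes followed on the same scale of CPM per kilobase. WRKY3 and WRKY4, a closely related pair linked to resistance to necrotrophic fungi, were at 10.2 and 6.17, WRKY1 at 8.79, WRKY20 at 4.96, WRKY2, which acts in zygote polarity, at 3.92, and WRKY26 at 3.73. Of the remaining defence and senescence genes, WRKY40 was at 7.34, WRKY53, a promoter of leaf senescence, at 6.86, WRKY22, placed downstream of the flagellin receptor, at 6.06, and WRKY54 at 5.68. Calmodulin-binding group IId genes spread from WRKY21 at 7.30 over WRKY17 at 4.68 and WRKY39 at 4.22 to WRKY7 at 3.55. Further members above 1 CPM per kilobase were WRKY47 (3.53), WRKY69 (3.44), WRKY6 (3.43), WRKY46 (3.16), WRKY29 (2.096), WRKY8 (1.92), WRKY48 (1.89), WRKY28 (1.88) and WRKY60 (1.24).

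At the low end stood WRKY57 (0.755 CPM per kilobase), WRKY30 (0.747), WRKY50 (0.662), WRKY65 (0.588), WRKY45 (0.477), WRKY41 (0.385), WRKY38 (0.218), WRKY55 (0.210), WRKY42 (0.206), WRKY51 (0.168), WRKY63 (0.113), WRKY62 (0.0857), WRKY75 (0.0840), WRKY72 (0.0245), WRKY31 (0.0227) and WRKY61 (0.00535). WRKY61 rested on 3 counts in all, and WRKY75, a gene of phosphate starvation and root development, on 21 counts, of which 20 came from 1 library. WRKY66 was the member with no count in any library, and 0 counts of 238009661 allow up to 0.0126 CPM, for counting error only. In all, 35 members were listed in all 8 libraries and 10 in 1 to 7 libraries.

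**Figure D1:**
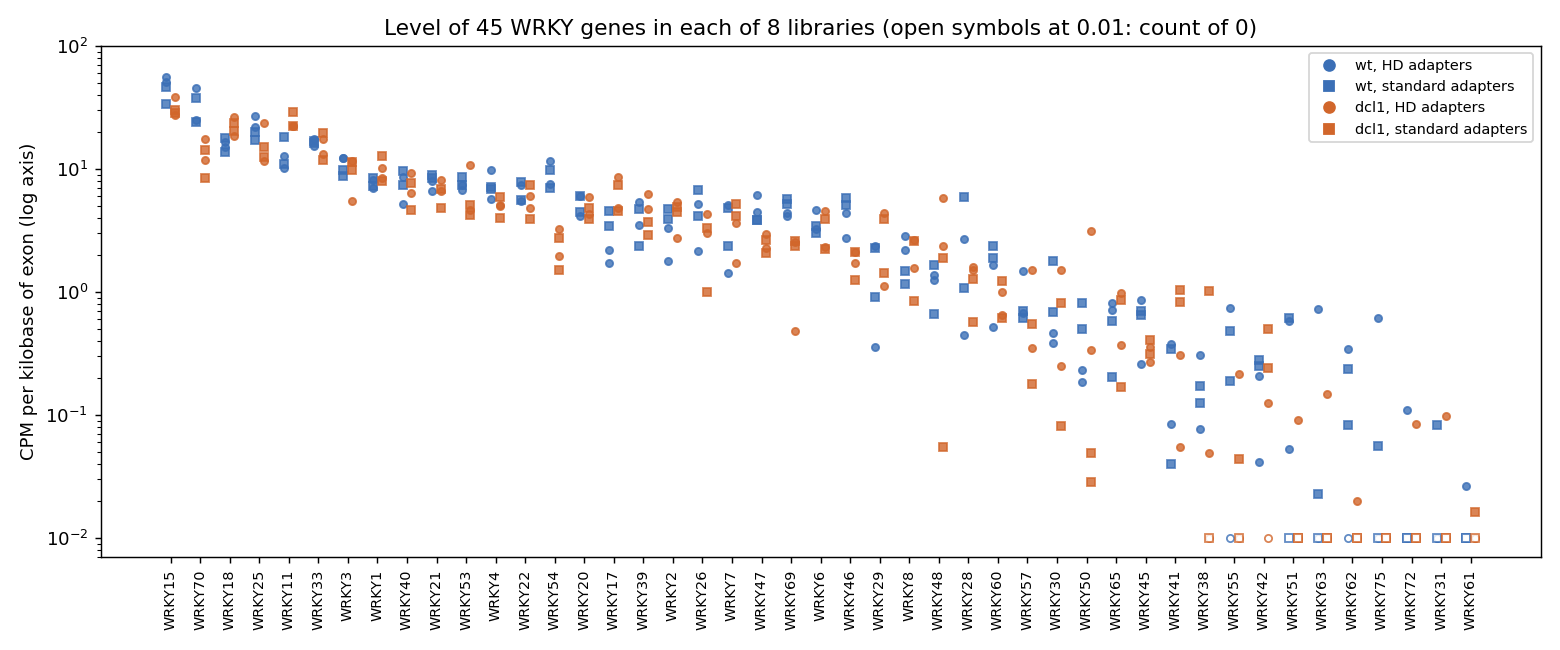
Level of the 45 listed members in each library, as CPM per kilobase of exon on a log axis. Members are ordered by their mean over 8 libraries. Blue marks wild type and orange dcl1, circles HD and squares standard adapters, and open symbols at 0.01 stand for a count of 0. WRKY15 lies at the left with 27.3 to 55.5 CPM per kilobase, and values spread widely below about 1.

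The main comparison asked how WRKY messenger RNA in dcl1 leaves differs from wild type. In both kinds of library WRKY54 and WRKY70, related group III genes known to restrain senescence and salicylate synthesis, were lower in dcl1. WRKY11 and WRKY17, related group IId genes known as negative regulators of resistance to Pseudomonas syringae, were higher with HD adapters and on summed counts. On summed counts WRKY46, WRKY15 and WRKY69 were also lower. The other tested members, among them WRKY33, WRKY40 and WRKY53, were not called. In bulk leaf RNA, fewer cells of a type and less RNA per cell cannot be told apart.

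With HD adapters 38 members had enough counts to be tested, and 8 did not (WRKY31, WRKY38, WRKY61, WRKY62, WRKY63, WRKY66, WRKY72 and WRKY75). A member was called at an adjusted p under 0.05 by edgeR's quasi-likelihood test over all loci tested. By that rule 2 of 38 members rose (5.26%), against 2.07% of all 19521 loci, and 2 fell (5.26%), against 2.26% of all loci. DESeq2 added WRKY15 to those that fell. The median log2 fold change of the tested members was -0.21, beside -0.01 over all loci, and 26 of 38 were negative. These shares rest on a handful of genes, and single libraries moved them. Leaving out the second HD library of either genotype left 0 members that rose, and leaving out the first left 1. Leaving out wild-type HD replicate 1 left 0 members that fell.

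With standard adapters 0 of 38 members rose by edgeR, against 1.87% of all loci, and 2 fell (5.26%), against 2.36%. An unadjusted p under 0.05 was reached by 9 members in either direction, and by 16.0% of all loci. DESeq2 called WRKY11 as the 1 higher member and added WRKY46 to those that fell. The median log2 fold change was -0.43, beside 0.00 over all loci, and 26 of 38 were again negative. Leaving out replicate 1 of the standard libraries, in either genotype, lowered the count that fell from 2 to 1. The count of 0 that rose became 1 without any 1 of 6 libraries, namely all but the second standard library of each genotype.

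Both libraries of an RNA sample share their source, so the counts of libraries with the same genotype and replicate number were also summed, which left 2 sums per genotype. Equal numbers were taken to mark the same RNA sample, which could not be read from the counts. On these sums 38 members were tested (WRKY38 in, WRKY51 out), 2 rose (5.26%) against 4.3% of all 19711 loci, and 5 fell (13.2%) against 4.55%. The members were chosen with earlier results of these data known, so their shares here and within adapters describe these genes only. The median log2 fold change was -0.14, beside 0.01 over all loci, and 24 of 38 were negative. An unadjusted p under 0.05 was reached by 12 members, and by 21.7% of all loci. Without wild-type replicate 1 or dcl1 replicate 2, 1 member rose, and without dcl1 replicate 1, 4 rose. Without wild-type replicate 2, 2 members fell, and without dcl1 replicate 1, 3 fell.

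The separate libraries can also be compared by overlap alone. All 4 dcl1 libraries lay above all 4 wild-type libraries for WRKY11, WRKY17 and WRKY18, 3 of 38 tested members (7.89%), against 7.64% of all loci. All 4 dcl1 libraries lay below all 4 wild-type libraries for WRKY46, WRKY47, WRKY54, WRKY69 and WRKY70, 5 of 38 (13.2%), against 8.17% of all loci. The share of members with every dcl1 library higher is thus near the background. The lower share rests on 5 genes of a set chosen with earlier results of these data known, so it describes these genes only.

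**Figure D2:**
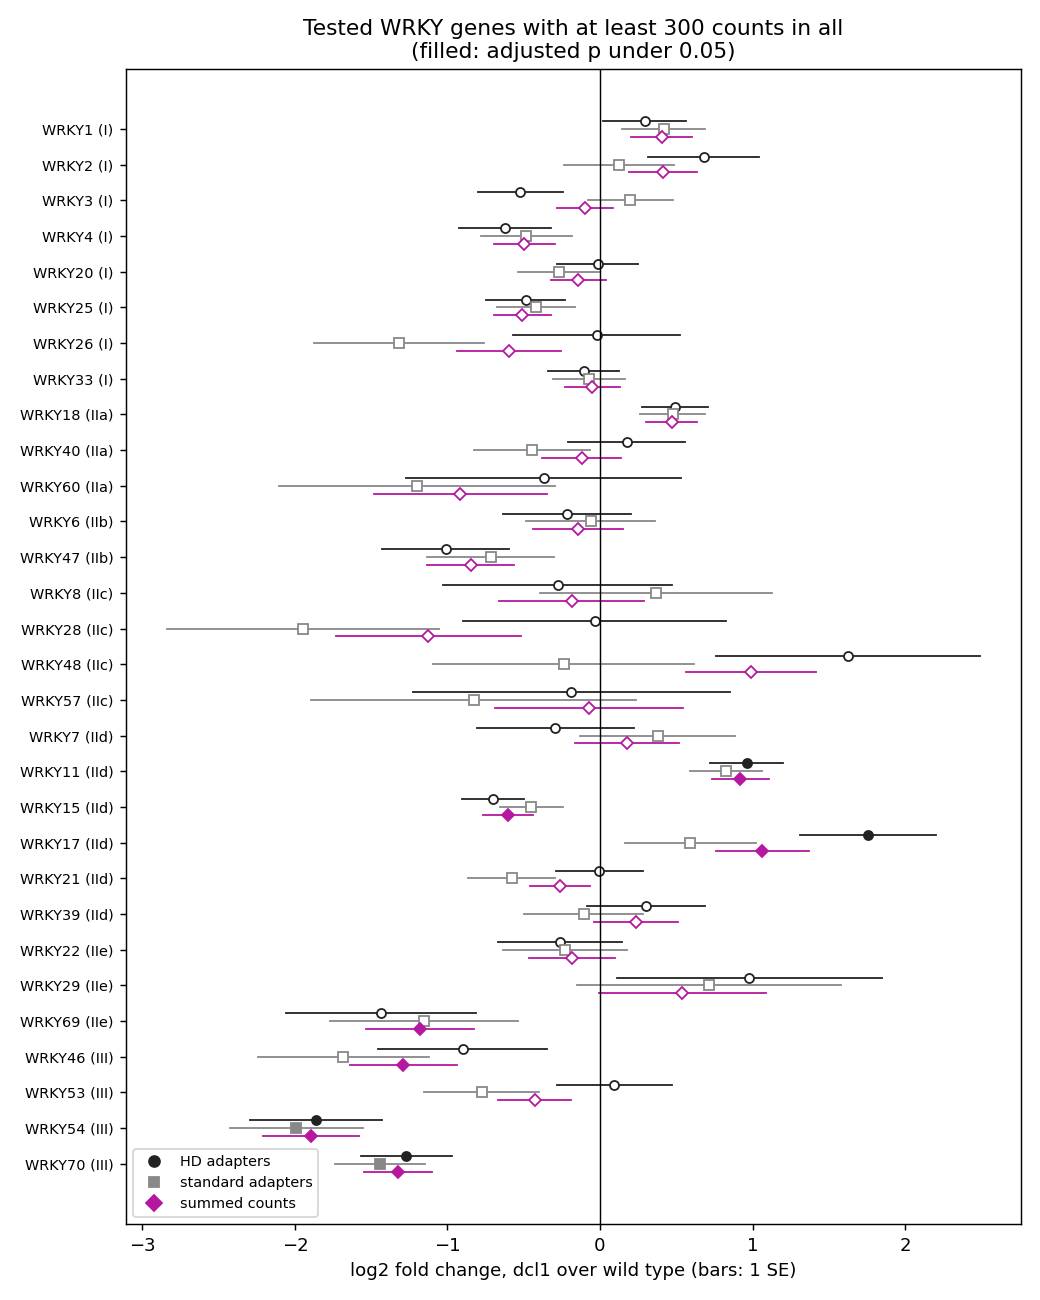
Log2 fold change of dcl1 over wild type for the 30 members tested on summed counts that had at least 300 counts in all, with the family group in brackets. Circles are HD adapters, squares standard adapters and diamonds summed counts, bars are 1 SE, and filled symbols have an adjusted p under 0.05. WRKY54 and WRKY70 lie to the left with all 3 symbols filled, and WRKY11 and WRKY17 to the right with the HD and summed symbols filled.

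Over all loci 4.3% rose and 4.55% fell on summed counts. Group IId, with 6 tested members, held both members that rose and 1 of those that fell. These proteins bind calmodulin through a conserved stretch outside the WRKY domain. WRKY11 (AT4G31550, chr4:15289788-15291934) had 23.1 and 18.5 CPM in the wild-type HD libraries, 33.2 and 20.1 in the wild-type standard libraries, 40.4 and 40.6 in the dcl1 HD libraries and 40.7 and 53.3 in the dcl1 standard libraries. Every dcl1 library was above every wild-type library, and the lowest dcl1 value exceeded the highest wild-type value of 33.2. The means were 20.8 ± 3.25 in wild type and 40.5 ± 0.144 in dcl1 with HD adapters (SD, n = 2 each), a log2 fold change of 0.96 (SE 0.24, edgeR adjusted p = 0.0202). With standard adapters they were 26.6 ± 9.23 and 47.0 ± 8.90, a log2 fold change of 0.83 (SE 0.24, edgeR adjusted p = 0.0502), which missed the threshold. On summed counts WRKY11 rose 1.89-fold (log2 0.92, SE 0.19, edgeR adjusted p = 0.00434), and it was called in 12 of 12 alternatives there (log2 0.66 to 1.22). Its HD call was lost when wild-type HD replicate 2 was left out (adjusted p = 0.154), and likewise for dcl1 HD replicate 1 (0.0558) and 2 (0.0673).

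WRKY17 (AT2G24570, chr2:10437353-10439469) stood at a lower level. It had 2.65 and 3.39 CPM in the wild-type HD libraries, 5.28 and 6.97 in the wild-type standard libraries, 7.40 and 13.3 in the dcl1 HD libraries and 7.03 and 11.5 in the dcl1 standard libraries. The genotypes did not overlap, but wild-type standard replicate 2 (6.97) nearly reached dcl1 standard replicate 1 (7.03). With HD adapters WRKY17 rose 3.38-fold (log2 1.76, SE 0.45, edgeR adjusted p = 0.0238), from 3.02 ± 0.523 to 10.3 ± 4.17 CPM. With standard adapters it was at 6.13 ± 1.19 and 9.24 ± 3.12 CPM (log2 0.59, SE 0.43, edgeR adjusted p = 0.576). The difference between these contrasts was 1.17 (SE 0.62) and did not pass (edgeR adjusted p = 0.9999, unadjusted 0.0715), so an effect of the adapter on the contrast was not shown. On summed counts WRKY17 rose 2.09-fold (log2 1.06, SE 0.30, edgeR adjusted p = 0.0359). That call ended without wild-type replicate 1 (log2 0.89, adjusted p = 0.0742) or dcl1 replicate 2 (log2 0.65, adjusted p = 0.419), and the HD call was lost without either wild-type HD library (0.129 and 0.0684 for replicates 1 and 2) and without dcl1 HD replicate 2 (0.300).

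WRKY15 (AT2G23320, chr2:9924886-9926372), the member with the most counts, went the other way. It had 65.0 and 71.2 CPM in the wild-type HD libraries, 43.7 and 59.5 in the wild-type standard libraries, 35.1 and 49.0 in the dcl1 HD libraries and 36.7 and 39.0 in the dcl1 standard libraries. The genotypes overlapped, since dcl1 HD replicate 2 (49.0) was above wild-type standard replicate 1 (43.7). On summed counts WRKY15 fell by 0.60 on the log2 scale (SE 0.16, edgeR adjusted p = 0.0269), from 59.5 ± 8.29 to 39.2 ± 4.94 CPM (n = 2 each). The log2 fold changes within adapters were -0.70 with HD (edgeR adjusted p = 0.0534) and -0.45 with standard adapters (0.277). Neither passed by edgeR, while DESeq2 called the HD contrast (log2 -0.70, adjusted p = 0.0344). The call on sums ended without wild-type replicate 2 (log2 -0.47, adjusted p = 0.134) or dcl1 replicate 1 (log2 -0.48, adjusted p = 0.174). The other 3 members of group IId, WRKY7, WRKY21 and WRKY39, were not called, with log2 fold changes on sums of 0.18, -0.26 and 0.24.

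Group III held 3 of the 5 members that fell on summed counts, out of 8 tested, and 0 that rose by edgeR (3 had an unadjusted p under 0.05, all in the direction of lower values, and DESeq2 called the same number). Over all loci 4.55% fell on sums. The median log2 fold change of the 8 was -0.86, beside 0.01 over all loci. WRKY54 (AT2G40750, chr2:17000419-17002528) had 16.6 and 10.9 CPM in the wild-type HD libraries, 14.0 and 10.1 in the wild-type standard libraries, 4.64 and 2.79 in the dcl1 HD libraries and 3.97 and 2.15 in the dcl1 standard libraries. The lowest wild-type library was at 10.1 CPM and the highest dcl1 library at 4.64 CPM, so a wide gap separated the genotypes. WRKY54 fell by 1.86 on the log2 scale with HD adapters (SE 0.43, edgeR adjusted p = 0.0125), by 1.99 with standard adapters (SE 0.44, edgeR adjusted p = 0.00911) and by 1.90 on summed counts (SE 0.32, edgeR adjusted p = 0.000938), which is 3.72-fold. It was called on sums in 12 of 12 alternatives (log2 -2.42 to -1.52). The HD call ended when wild-type HD replicate 1 (adjusted p = 0.134) or the second dcl1 HD library (0.122) was left out. The standard call ended when wild-type standard replicate 1 (0.0675) or the second dcl1 standard library (0.0889) was left out.

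WRKY70 (AT3G56400, chr3:20908711-20910623) was among the most abundant members in wild type. It had 66.8 and 36.5 CPM in the wild-type HD libraries, 55.9 and 35.2 in the wild-type standard libraries, 17.3 and 25.7 in the dcl1 HD libraries and 12.5 and 20.8 in the dcl1 standard libraries. The genotypes did not overlap, and replicate 1 was the higher library of wild type under both adapters while replicate 2 was the higher library of dcl1 under both. WRKY54 shared the first of these differences but not the second, its dcl1 values being higher in replicate 1. WRKY70 fell by 1.27 on the log2 scale with HD adapters (SE 0.30, edgeR adjusted p = 0.0132), by 1.44 with standard adapters (SE 0.30, edgeR adjusted p = 0.00566) and by 1.33 on summed counts (SE 0.22, edgeR adjusted p = 0.00101), which is 2.51-fold. It was called on sums in 12 of 12 alternatives (log2 -1.67 to -0.90). The HD call ended without wild-type HD replicate 1 (log2 -0.75, adjusted p = 0.259) or without the library dcl1 HD replicate 1 (log2 -0.99, adjusted p = 0.123), and the standard call without dcl1 standard replicate 1 (adjusted p = 0.0537).

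WRKY46 (AT2G46400, chr2:19043411-19044955), which acts with WRKY54 and WRKY70 in brassinosteroid-regulated growth, was lower as well. It had 3.76 and 5.89 CPM in the wild-type HD libraries, 7.90 and 6.93 in the wild-type standard libraries, 2.35 and 2.85 in the dcl1 HD libraries and 1.69 and 2.89 in the dcl1 standard libraries. Every dcl1 library was below every wild-type library, with the smallest gap between 2.89 and 3.76 CPM. On summed counts WRKY46 fell by 1.29 on the log2 scale (SE 0.35, edgeR adjusted p = 0.0287). Within adapters the log2 fold changes were -0.90 (edgeR adjusted p = 0.460) and -1.68 (0.0998), and neither passed by edgeR, while DESeq2 called the standard contrast (log2 -1.68, adjusted p = 0.0306). The call on sums ended without wild-type replicate 2 (adjusted p = 0.0910) or dcl1 replicate 1 (0.107).

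The other group III genes gave no call. WRKY53, which promotes senescence, was at 10.2 to 13.0 CPM in wild type and 6.42 to 16.2 in dcl1 (log2 -0.43 on sums, edgeR adjusted p = 0.323). Of its exon bases 22.5% are overlapped on the opposite strand by a neighbouring gene, and whether counting used strand is not known here. WRKY30, WRKY41, WRKY38 and WRKY55 were tested on 52 to 204 counts each and were not called. Of the WRKY41 exon bases 41.7% are overlapped on the opposite strand by AT4G11080, which had 0.799 to 2.71 CPM in wild type and 0.243 to 3.35 in dcl1 against 0.0468 to 1.22 CPM for WRKY41, so the counts of WRKY41 are uncertain. WRKY38 and WRKY62, known as negative regulators of basal defence, reached at most 1.32 and 0.374 CPM.

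**Figure D3:**
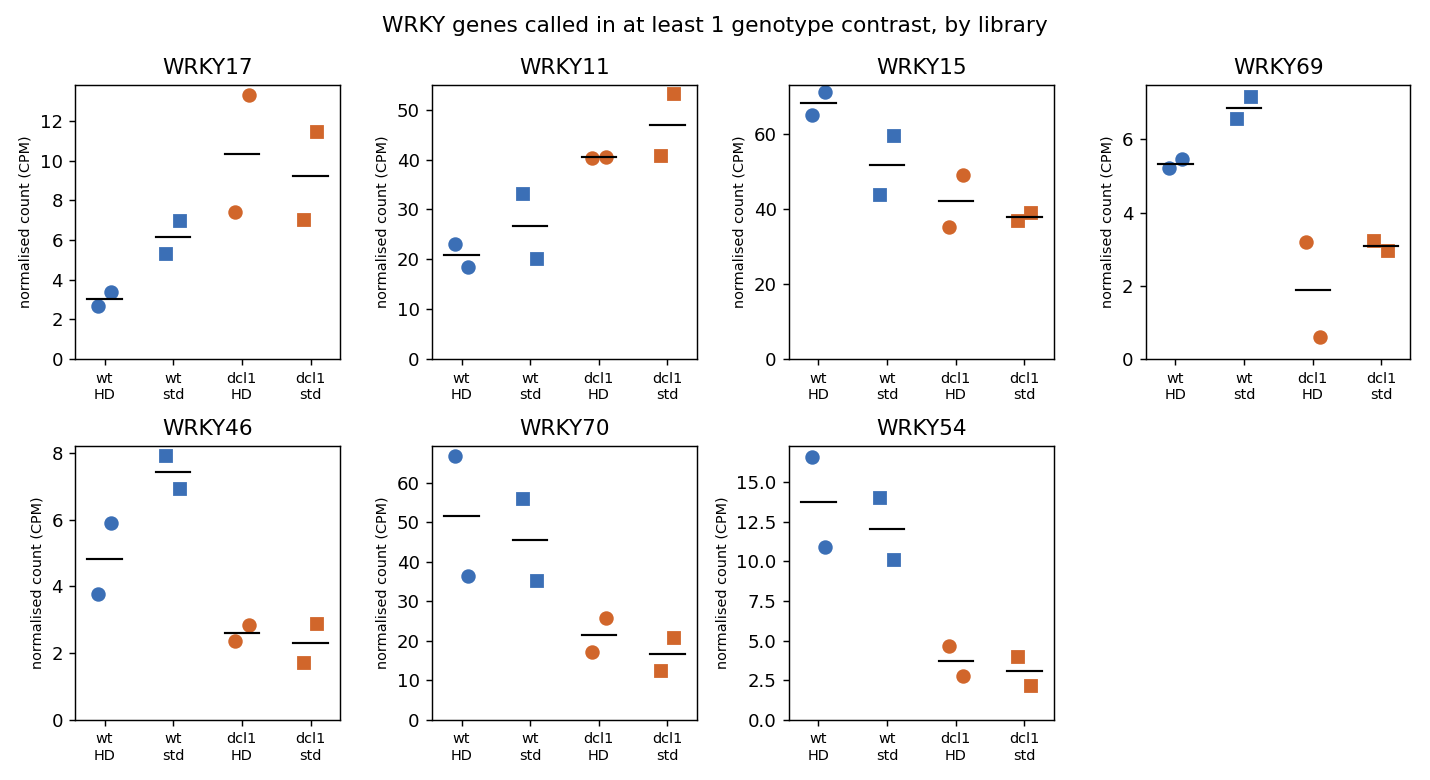
CPM in each library for the 7 members called in at least 1 genotype contrast. Circles are HD and squares standard (std) adapters, blue is wild type and orange dcl1, and the line is the mean of the 2 libraries. For WRKY54 the wild-type libraries lie between 10.1 and 16.6 CPM and the dcl1 libraries between 2.15 and 4.64.

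WRKY69 (AT3G58710, chr3:21714911-21716916) was the 1 called member of the 4 in group IIe, on summed counts, where 4.55% of all loci fell. It had 5.21 and 5.47 CPM in the wild-type HD libraries, 6.55 and 7.16 in the wild-type standard libraries, 3.19 and 0.607 in the dcl1 HD libraries and 3.23 and 2.95 in the dcl1 standard libraries. The dcl1 libraries were all below the wild-type libraries, and dcl1 HD replicate 2, with 10 counts, was far below the other 3. WRKY69 fell by 1.18 on the log2 scale on summed counts (SE 0.35, edgeR adjusted p = 0.0468), and neither adapter alone passed (edgeR adjusted p = 0.249 and 0.382). The call ended without dcl1 replicate 2 (log2 -0.93, adjusted p = 0.210), without wild-type replicate 1 (0.0630) or 2 (0.127), and in the model of all 8 libraries with genotype and adapter as terms (0.0512). An opposite-strand gene, AT3G58720, overlaps the WRKY69 exons, 30.6% of whose bases have a gene on the other strand. AT3G58720 had 3.72 to 8.96 CPM in wild type and 1.82 to 5.11 in dcl1 (log2 -0.50, edgeR adjusted p = 0.481), and reads of the overlap cannot be assigned to either gene without the strand. WRKY22 and WRKY29, which act after perception of bacterial flagellin, and WRKY65 were not called (log2 on sums -0.18, 0.54 and 0.09).

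Group I, with both its WRKY domains, was tested in full, and 0 of 8 members were called by edgeR on summed counts (DESeq2 called 0, and an unadjusted p under 0.05 was found for 2). On sums 4.3% of all loci rose and 4.55% fell. A count of 0 among so few genes, here and in groups IIa, IIb and IIc below, is thus near the background. WRKY25, which acts in heat tolerance with WRKY26 and WRKY33, had 39.2 and 47.6 CPM in the wild-type HD libraries, 35.2 and 30.7 in the wild-type standard libraries, 20.7 and 41.7 in the dcl1 HD libraries and 22.3 and 26.8 in the dcl1 standard libraries. Of its 4 dcl1 libraries 3 were below all wild-type libraries, and the exception was dcl1 HD replicate 2 (41.7). Its log2 fold change on sums was -0.51 (SE 0.19, edgeR adjusted p = 0.105). WRKY33, the MAP kinase substrate that drives camalexin synthesis, was at 31.4 to 35.5 CPM in wild type and 24.2 to 40.0 in dcl1. Its log2 fold change on sums was -0.05 with an SE of 0.18 (edgeR adjusted p = 0.918), and the dcl1 range enclosed the wild-type range. The log2 fold changes of WRKY1, WRKY2, WRKY3, WRKY4, WRKY20 and WRKY26 on sums lay between -0.59 and 0.41.

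Group IIa comprises WRKY18, WRKY40 and WRKY60, which bind each other and limit basal defence against powdery mildew, and 0 of 3 were called by edgeR on summed counts (DESeq2 called 0, and an unadjusted p under 0.05 was found for 1). WRKY18 had 33.9 and 30.8 CPM in the wild-type HD libraries, 28.0 and 36.4 in the wild-type standard libraries, 37.6 and 53.6 in the dcl1 HD libraries and 41.5 and 48.2 in the dcl1 standard libraries. Every dcl1 library was above every wild-type library, with the smallest gap between 36.4 and 37.6 CPM. The log2 fold changes were alike in size, 0.49 with HD adapters (SE 0.22), 0.48 with standard adapters (SE 0.21) and 0.47 on sums (SE 0.17, edgeR adjusted p = 0.0940), and none passed. On the genotype contrast over both adapters WRKY18 did pass in the model of all 8 libraries with genotype and adapter as terms (adjusted p = 0.0331), without a filter on low counts (0.0481), with crossed sums (0.00797) and without dcl1 replicate 1 (log2 0.65, 0.0321). WRKY40 was at 6.91 to 12.7 CPM in wild type and 6.13 to 12.3 in dcl1 (log2 -0.12 on sums), and WRKY60 at 0.824 to 3.75 and 0.982 to 1.96 (log2 -0.92, SE 0.57).

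In group IIb 3 of 6 members had enough counts, and 0 were called by edgeR on sums (DESeq2 called 0, and an unadjusted p under 0.05 was found for 1). WRKY47 was at 7.51 to 11.97 CPM in wild type and 4.05 to 5.74 in dcl1, without overlap (log2 -0.85, SE 0.28, edgeR adjusted p = 0.0754). WRKY6 and WRKY42, which repress the phosphate exporter gene PHO1, had log2 fold changes of -0.14 and 0.30. In group IIc 6 of 8 members were tested on sums, and 0 were called by edgeR (DESeq2 called 0, and an unadjusted p under 0.05 was found for 1). WRKY48, a negative regulator of basal defence, spread from 0.106 to 11.2 CPM among the dcl1 libraries alone (log2 0.99, SE 0.42, edgeR adjusted p = 0.177). WRKY28, an activator of salicylate synthesis, spread from 0.651 to 8.59 CPM among the wild-type libraries (log2 -1.13, SE 0.61, edgeR adjusted p = 0.303). For both genes the spread within a genotype was larger than the difference between the means. WRKY8, WRKY45, WRKY50 and WRKY57 had log2 fold changes on sums between -0.88 and 0.58.

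**Figure D4:**
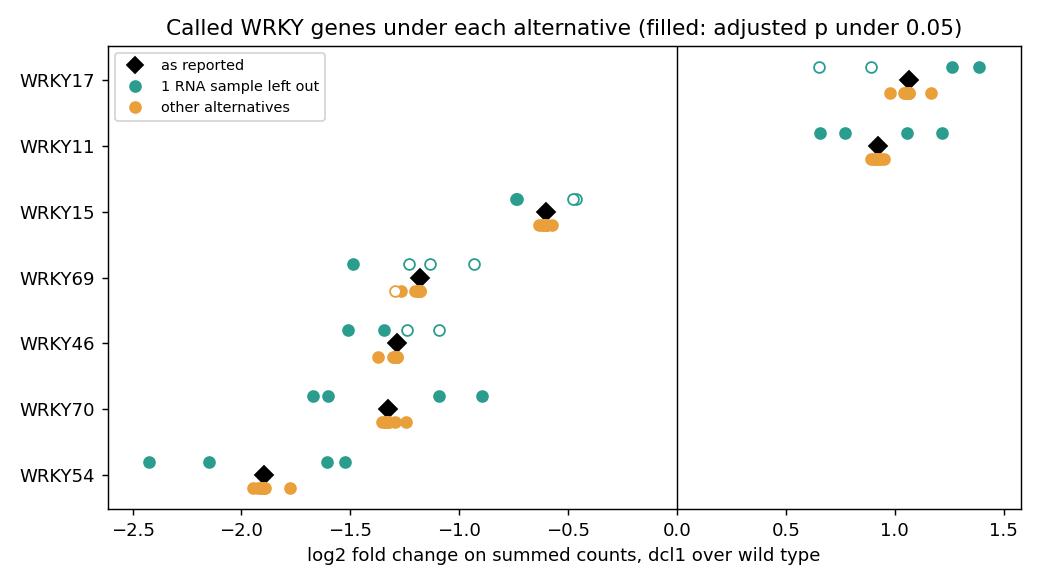
Log2 fold change on summed counts of the 7 called members, as reported (diamonds), with 1 RNA sample left out (green) and under the other alternatives (orange). Libraries of equal genotype and replicate number are taken as 1 RNA sample. Filled symbols have an adjusted p under 0.05. All symbols of WRKY11, WRKY54 and WRKY70 are filled, whereas WRKY15, WRKY17, WRKY46 and WRKY69 each have open symbols with 1 RNA sample left out, and no symbol crosses 0.

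Calls that involve the adapter were rare over all loci, so their absence among the members says little about the members. In the model with genotype and adapter as terms, 0 of 38 members were called by edgeR between HD and standard libraries, against 0.492% of all loci (DESeq2 called 0, and an unadjusted p under 0.05 was found for 0). For the difference of the genotype contrast between adapters, 0 of 38 were called by edgeR, against 0.0256% of all loci (DESeq2 called 0, and an unadjusted p under 0.05 was found for 1). That 1 was WRKY50, which had 138 counts in all and spread from 0.0307 to 3.40 CPM among the dcl1 libraries. The summed level of the 46 genes was lowest in the libraries of dcl1 replicate 1, at 351.2 CPM with standard and 378.0 with HD adapters, against 439.0 to 476.0 CPM in the other 6 libraries. The standard library of that replicate also held the lowest value of 14 of the 38 tested members, against 16.0% of all loci.

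Summed leaf markers overlapped between the genotypes. The summed level of 6 mesophyll genes was 60240 to 79400 CPM in wild type and 60280 to 73010 in dcl1, that of 2 phloem genes 220.1 to 298.2 and 269.5 to 294.1, and that of 3 epidermis and trichome genes 199.5 to 225.4 and 189.3 to 207.6. Markers of other organs were low: 3 root genes summed to at most 3.16 CPM, 2 flower genes to at most 1.08 and 3 seed genes to at most 0.280, with the seed genes CRU3 and OLEO1 at 0 in all libraries. The 3 guard cell genes summed to 21.5 to 28.4 CPM in wild type and 12.3 to 28.1 in dcl1, and 1 of them, MYB60, fell on summed counts (log2 -1.02, edgeR adjusted p = 0.0382). The part of guard cells in the WRKY results was not tested.

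Genes that act before the WRKY proteins were described next. The list of 14 MAP kinase cascade and calcium-dependent kinase genes was tested in full. It was chosen with earlier results of these data known, so its counts and median describe these genes only. On summed counts 6 fell and 0 rose by edgeR (DESeq2 called 6, also lower, and an unadjusted p under 0.05 was found for 7), with a median log2 fold change of -0.39 beside 0.01 over all loci. Over all loci 4.55% fell on sums, and 21.7% had an unadjusted p under 0.05. Within adapters 2 of the 14 fell with HD and 2 with standard adapters, where 2.26% and 2.36% of all loci fell. MKK1, a kinase of the cascade with MPK4, was at 23.4 ± 0.407 and 25.8 ± 0.829 CPM in wild type with HD and standard adapters and at 11.2 ± 0.906 and 9.66 ± 3.87 in dcl1 (SD, n = 2 each). It fell by 1.14 on the log2 scale on sums (SE 0.19, edgeR adjusted p = 0.000768), by 1.06 with HD and by 1.41 with standard adapters. MKK2 fell by 0.76 on sums (edgeR adjusted p = 0.00791). CPK6, a calcium-dependent kinase, was lower on sums as well (edgeR adjusted p = 0.00259), at 29.4 ± 2.81 and 31.9 ± 2.60 CPM in wild type with HD and standard adapters and 17.3 ± 6.48 and 14.2 ± 2.13 in dcl1. Of the main defence MAP kinases, MPK3 fell by 0.55 on sums (SE 0.16, edgeR adjusted p = 0.0346), while MPK6 and MPK4 did not pass (log2 -0.21 and -0.43). MPK3, MPK4 and MPK6 were named after their values were seen, for their role with WRKY33. MKK9 and MPK11 were the remaining calls.

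VQ proteins are small partners that bind WRKY factors. Their list too was chosen with earlier results of these data known. On sums 4.55% of all loci fell and 4.3% rose. Of 11 listed, 9 were tested, and on sums 1 fell and 0 rose by edgeR (DESeq2 called 1, also lower, and an unadjusted p under 0.05 was found for 2), with a median of -0.48 beside 0.01 over all loci. The 1 was SIB1, a chloroplast- and nucleus-located partner of WRKY33, at 21.96 ± 8.32 and 19.4 ± 4.53 CPM in wild type with HD and standard adapters and 9.49 ± 0.913 and 8.74 ± 1.97 in dcl1. It fell by 1.21 with HD adapters (SE 0.32, edgeR adjusted p = 0.0307), by 1.14 with standard adapters (SE 0.32, edgeR adjusted p = 0.0443) and by 1.14 on sums (SE 0.23, edgeR adjusted p = 0.00398). VQ10 (log2 -1.53, SE 0.60) and SIB2 (log2 -0.48, SE 0.27) did not pass. VQ8 and VQ29 were at 0 in all libraries.

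A further list held 18 genes described as direct or downstream targets of WRKY proteins, 14 of which were tested. On sums 1 rose and 6 fell, where 4.3% of all loci rose and 4.55% fell, with a median of -0.67 beside 0.01 over all loci. The list was chosen with earlier results of these data known, so its counts describe these genes only. PR1, the salicylate-induced defence protein, fell by 2.63 on the log2 scale (SE 0.30, edgeR adjusted p = 1.86e-05), from 74.8 ± 42.2 and 101 ± 63.0 CPM in wild type with HD and standard adapters to 12.2 ± 3.62 and 16.8 ± 5.52 in dcl1. SARD1, an activator of salicylate synthesis, fell by 2.07 (SE 0.26, edgeR adjusted p = 6.33e-05). ACS6, an enzyme of ethylene synthesis under MPK3, MPK6 and WRKY33, rose by 1.93 (SE 0.24, edgeR adjusted p = 5.31e-05). The other genes that fell were PAD3 (log2 -2.18), the last enzyme of camalexin synthesis, ICS1 (-1.38), the salicylate synthesis enzyme, EDS1 (-0.82) and NPR1 (-0.51), named after their values were seen. Of the genes tied to WRKY33, PAD3 thus fell and ACS6 rose, while WRKY33 itself and CYP71A13 (log2 -0.10, edgeR adjusted p = 0.906) did not pass. SAG12, ABI4 and PHT1;1 were at 0 in all libraries.

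Of the 26 other WRKY loci of the annotation, 12 were tested on sums, where 4.3% of all loci rose and 4.55% fell. By edgeR 0 of the 12 were called (DESeq2 called 0, and an unadjusted p under 0.05 was found for 1). With standard adapters DESeq2 called 1 of them, WRKY44, a trichome and seed coat regulator. WRKY44 was at 0.975 ± 0.0376 and 0.960 ± 0.463 CPM in wild type with HD and standard adapters, at 0.244 ± 0.173 in dcl1 with HD adapters and at 0 in both dcl1 standard libraries (edgeR adjusted p = 0.216 on sums). WRKY13 (log2 1.42, SE 0.78) and WRKY58 (log2 -0.98, SE 0.64) came next by p and did not pass.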

How the data were processed

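Leaf messenger RNA was measured in 8 libraries. The deposited files hold whole-number read counts per locus, and loci absent from a file were set to 0. The submitters' processing notes name the genome build TAIR 10. The sources used here give no aligner, counting tool or strand. Groups and replicate numbers came from the sample titles. Library totals ran from 15772958 to 45929383, which limits the precision of low members, and no molecular identifiers were given.

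Counts were analysed in R 4.3.3 with edgeR 4.0.16 (filterByExpr, TMM, quasi-likelihood F test, two-sided, Benjamini-Hochberg over all loci tested, threshold 0.05). A model of 4 group means on 8 libraries gave the contrasts within adapters and their difference, an additive model gave the adapter contrast, and the genotype contrast was also fitted to 4 sums of libraries of equal genotype and replicate number. Standard errors are the absolute log2 fold change over the square root of F and are approximate. CPM were computed here from counts and TMM factors. The fits were tested on simulated data with independent libraries and less scatter than the real libraries. That test therefore does not give error rates for these data. DESeq2 1.42.0 and other settings served as alternatives.

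The members and all lists were chosen with earlier results of these data known. Values in every library are given for members called in a genotype contrast and for the 4 with the highest level per kilobase, and up to 3 genes per list by smallest p on sums. Positions, exon lengths, translated identities (global alignment) and sequences came from the RefSeq TAIR10.1 genome and annotation, in which 22444 of 22546 listed loci were matched by identifier.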

Additional observations from a re-analysis of the deposited data

How the results depend on the processing

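For the 7 called members, 294 values were recomputed under the alternatives: 249 kept their direction and their side of the threshold, 22 passed it anew, 23 no longer passed it, and 0 changed sign. These counts do not measure stability, since the members were picked for passing in these same data and the refits share most libraries. Leaving out a library of the other adapter hardly moves a value. For WRKY11 with standard adapters, log2 was 0.825 as reported and 0.830 and 0.827 without wild-type HD replicates 1 and 2. With 1 library left out, or for sums 1 RNA sample (both its libraries), the members that rose numbered 0 to 2 with HD adapters, 0 to 1 with standard adapters and 1 to 4 on sums, and those that fell 0 to 3, 1 to 3 and 2 to 5. With standard adapters 1 member rose, WRKY11, under DESeq2, upper-quartile factors, no filter on low counts, without ribosomal RNA loci and with the replicate block (log2 0.85, adjusted p = 0.0224). WRKY15 also fell with HD adapters under DESeq2, upper-quartile factors, no filter on low counts and the replicate block (log2 -0.72, edgeR adjusted p = 0.0159 with the block). With the replicate block WRKY25 and WRKY47 fell on sums (log2 -0.54 and -0.86), as they did without a filter on low counts. The replicate block ended no call of these members. It is 1 term for the replicate number, shared by both genotypes, although no label says that equal numbers mark a common batch. It does not account for libraries that share an RNA sample. Crossed sums, which join libraries of unlike replicate number, gave 9 members that fell, adding WRKY25, WRKY26, WRKY28 and WRKY47, and WRKY18 as a further member that rose. Apart from fewer libraries, the cause of these changes was not tested.

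The labels say that both kinds of library came from the same RNA samples, but the numbers as marks of the RNA sample could not be read from the counts: deviations of same-numbered libraries correlated at 0.082 in wild type and 0.005 in dcl1 over 19521 loci, and between -0.024 and 0.008 across genotypes. The common biological coefficient of variation was 0.382, and 16 members lay under 1 CPM, so changes in those members were not detectable at this depth unless large. With 2 libraries a group, values rest on few degrees of freedom.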
